A study of Rattus norvegicus with 58 samples.

Results

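Synovial RNA from arthritic rats given RTD-1 for 5 days was set against that from arthritic rats given saline for the same time. The comparison used every library whose title names the 5-day RTD-1 arm (replicates 1 to 8) or the 5-day saline arm (replicates 1 to 8), 16 of the 58 libraries of the series. All rats of both arms were female DA/OlaHsd animals of 6 to 8 weeks in which 250 µl of pristane had induced arthritis. Dosing began the day after each rear limb had reached a score of at least 3. The RTD-1 arm was injected under the skin with 5 mg per kg of the peptide in saline, and the saline arm with saline alone. Untreated rats with pristane-induced arthritis (PIA, n = 4) and naive rats (n = 4) of the series defined which genes change in arthritis. They also gave levels to set beside those of single genes. All 58 libraries entered the fit that estimated the spread. The remaining ones came from arthritic rats given RTD-1 or saline for 1 or 3 days and from healthy rats given RTD-1 for 3 or 5 days. The labels do not say whether the replicates of an arm are separate animals, and p-values here measure only how far these libraries spread.

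Synovium is the thin tissue that lines joint capsules, and in inflammatory arthritis it thickens and fills with leukocytes and activated fibroblasts. Pristane is a hydrocarbon oil that sets off a T cell dependent polyarthritis in DA rats. RTD-1, rhesus theta-defensin 1, is a macrocyclic antimicrobial peptide of rhesus macaque leukocytes, known for lowering the release of TNF and other cytokines from blood cells and for inhibiting the enzyme that sheds TNF from the cell surface. Rats make no theta-defensin, and because RTD-1 is given as a peptide no gene in the table reports which rats received it. The table names genes by Ensembl identifier only, and none of these could be paired with a symbol here, so neither the tissue label nor named pathways could be checked against marker genes.

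Reads assigned to genes numbered 1541636 to 2870646 in RTD-1 libraries and 1017275 to 6415288 in saline libraries. Saline replicate 1, with 6415288 reads, was far deeper than the other saline libraries, which reached at most 2398902. Values below are reads scaled to a library of median depth, called normalized reads, or their log2 after adding 1, and 13062 genes passed the filter on low values.

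No gene passed the test between RTD-1 and saline after 5 days. limma called 0 of 13062 genes (0%) at a Benjamini-Hochberg adjusted p under 0.05, and the lowest adjusted p was 0.998. At an unadjusted p under 0.05 there were 470 genes (3.6%), of which 130 (0.995%) were higher and 340 (2.6%) lower with RTD-1. limma voom on whole reads also called 0 genes, with 659 at an unadjusted p under 0.05. Without saline replicate 7, the shallowest of the 16 libraries, the 470 became 724, 64 higher and 660 lower, and with TMM factors they were 698, 370 higher and 328 lower. As deposited, in none of the 13062 genes (0%) did all 8 RTD-1 libraries lie on 1 side of all 8 saline libraries. With TMM factors all RTD-1 libraries were below all saline libraries in 2 genes and above them in 0.

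How closely these 16 libraries bounded the difference between the arms depended on the level of a gene. The intervals below are for single genes, not adjusted for the number tested. They cover the mean over all replicates, not the effect within a set of replicates. The median gene had a difference with a standard error of 0.21 log2 and a 95% interval reaching 0.43 log2 to either side, or 1.34-fold. The interval lay wholly within a 2-fold change either way for 10302 genes, 78.9% of those tested. Among the 8221 genes with a mean log2 level of at least 5, the interval lay within 2-fold for 7826 (95.2%). Among the 4841 genes below that level it did so for 2476 (51.1%). A 2-fold change of a weakly expressed gene thus often lay within its interval. Differences of at least 2-fold, with no test, were seen in 119 genes (0.911%), 64 higher and 55 lower with RTD-1, and only 18 of these 119 had a mean log2 level of at least 5.

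The SD of single libraries within each arm was larger than the distance between the arm means. A difference between means of 8 libraries is mostly smaller than such an SD even without an effect. The order therefore cannot tell whether there was one. Over the genes tested the median SD was 0.39 log2 among RTD-1 libraries and 0.46 log2 among saline libraries, while the median size of the difference between arm means was 0.14 log2. The difference exceeded the larger of the 2 SDs in 335 of 13062 genes. The RTD-1 arm had the larger SD in 36.1% of genes.

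By a rule on test statistics, the pair of genes highest and the pair lowest with RTD-1 among those with a mean log2 level of at least 5 are described next, and the plot of normalized reads of these 4 genes shows every library. None passed the test, so the values are given as measurements.

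ENSRNOG00000017508 had 13.7 to 38.3 normalized reads in RTD-1 libraries (median 26.9) and 33.6 to 68.8 in saline libraries (median 46.7). RTD-1 replicates 5 and 8 exceeded the lowest saline library, replicate 6, and the other 6 RTD-1 libraries were below every saline library. RTD-1 libraries averaged 27.0 ± 7.39 and saline libraries 47.2 ± 11.1 (SD, n = 8 each), a log2 difference of -0.81 (SE 0.21, 95% interval -1.23 to -0.38, limma adjusted p = 0.998). The difference was -0.89 log2 in replicates 1 to 4 and -0.72 in replicates 5 to 8. The RTD-1 mean was close to the level in untreated PIA (31.1 ± 7.66) and in naive tissue (26.0 ± 6.55, SD, n = 4 each), and the saline mean was above both.

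ENSRNOG00000009539 had 15.2 to 35.8 normalized reads in RTD-1 libraries (median 28.4) and 19.4 to 76.9 in saline libraries (median 50.4). In replicates 1 to 4 every RTD-1 library was below every saline library, whereas in replicates 5 to 8 saline replicate 5 fell among the RTD-1 values and saline replicate 7 below them. RTD-1 libraries averaged 26.8 ± 7.25 and saline libraries 49.8 ± 17.9 (SD, n = 8 each), a log2 difference of -0.82 (SE 0.22, limma adjusted p = 0.998). The difference was -1.39 log2 in replicates 1 to 4, where its limma adjusted p of 0.0859 was the lowest in that set (the lowest was 0.535 with only the compared libraries in the fit), and -0.25 in replicates 5 to 8. This gene was higher in untreated PIA (56.6 ± 20.1) than in naive tissue (30.5 ± 2.34, SD, n = 4 each; limma adjusted p = 0.0347), a call lost with TMM factors (adjusted p = 0.102).

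ENSRNOG00000004103 had 26.9 to 60.7 normalized reads in RTD-1 libraries (median 38.1) and 11.1 to 37.2 in saline libraries (median 30.4). The arms overlapped, with RTD-1 replicates 1, 4, 5 and 6 above all saline libraries and saline replicates 3 and 7 well below all RTD-1 libraries. RTD-1 libraries averaged 40.7 ± 11.0 and saline libraries 27.9 ± 9.38 (SD, n = 8 each), a log2 difference of 0.57 (SE 0.21, limma adjusted p = 0.998).

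ENSRNOG00000012853 had 19.6 to 52.0 normalized reads in RTD-1 libraries (median 43.4) and 14.4 to 34.8 in saline libraries (median 31.5). All RTD-1 libraries except replicate 6, the lowest, were above every saline library. The log2 difference was 0.47 (SE 0.18, limma adjusted p = 0.998), and it was 0.47 in replicates 1 to 4 and 0.48 in replicates 5 to 8.

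**Figure D1:**
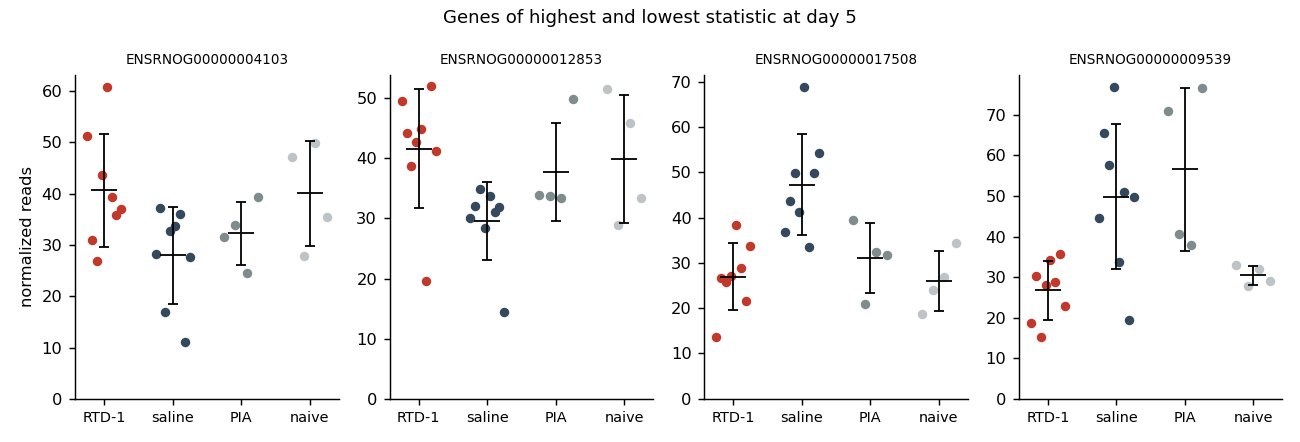
Normalized reads of 4 genes in RTD-1 (n = 8), saline (n = 8), untreated PIA (n = 4) and naive (n = 4) libraries. Among genes with a mean log2 level of at least 5, these had the highest and lowest test statistics at day 5. Points are libraries in order of replicate number, horizontal bars are means and error bars are SDs; the RTD-1 and saline points overlap in each panel.

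The replicates were next taken as 2 sets by number, 1 to 4 and 5 to 8; the labels do not say what, if anything, the numbers mark. In replicates 1 to 4 limma called 0 of 13062 genes (0%), with a lowest adjusted p of 0.0859. At an unadjusted p under 0.05 there were 2022 genes (15.5%), 90 (0.689%) higher and 1932 (14.8%) lower with RTD-1, and voom called 0 with 2473 at that level. limma also called 0 genes (0%) in replicates 5 to 8, with 751 (5.75%) at an unadjusted p under 0.05. Of these, 690 (5.28%) were higher and 61 (0.467%) lower with RTD-1, and voom again called 0, with 513. With only the compared libraries in the fit, replicates 1 to 4 gave 1193 genes at that level (59 higher and 1134 lower) and a lowest adjusted p of 0.535. With all 58 libraries as the starting point, the number at an unadjusted p under 0.05 fell to 1156 without RTD-1 replicate 1 and to 1250 without saline replicate 4 in the first set. In the second it was 381 without RTD-1 replicate 7, 253 without saline replicate 7 and 1421 without saline replicate 6.

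Both sets thus had one-sided lists, in opposite directions, under the deposited scaling. The median gene lay at -0.24 log2 in replicates 1 to 4 and at 0.17 log2 in replicates 5 to 8. Reads in genes made up 31.4% to 44.0% (median 34.4%) of the deposited scaling factor in RTD-1 replicates 1 to 4, and 36.9% to 49.8% (median 41.7%) in saline replicates 1 to 4. In replicates 5 to 8 they made up 33.8% to 39.2% (median 37.1%) in the RTD-1 arm and 24.5% to 37.3% (median 33.8%) in the saline arm. The share was thus lower with RTD-1 in the set where the median gene was lower, and higher in the set where it was higher. Both are computed from reads divided by the same factor, so they move together nearly by arithmetic. What made the sets shift was not tested. With TMM factors, which centre the libraries on their common genes, the medians were 0.00 and 0.01 log2. The lists then were 991 genes (7.59%) in replicates 1 to 4, 448 higher (3.43%) and 543 lower (4.16%). In replicates 5 to 8 there were 632 genes (4.84%), 342 higher (2.62%) and 290 lower (2.22%), and limma called 0 genes (0%) in either set.

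**Figure D2:**
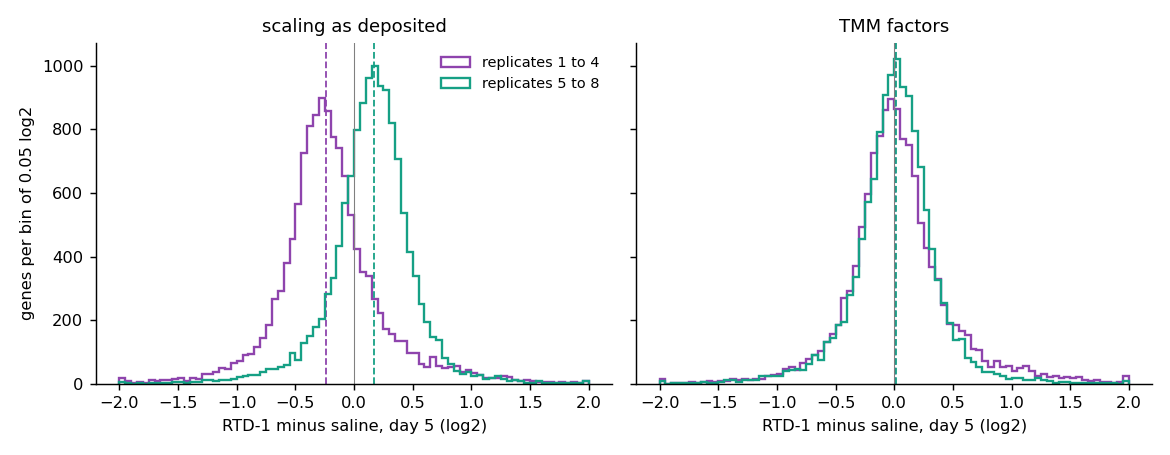
Distribution over 13062 genes of the RTD-1 minus saline difference at day 5 in log2 units, as deposited (left) and with TMM factors (right), for replicates 1 to 4 and 5 to 8. Dashed lines mark the medians, -0.24 and 0.17 log2 as deposited, which coincide near 0 with TMM factors; values beyond 2 log2 are drawn in the end bins.

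The 2 sets share no library, and gene by gene their differences did not run together. Across 13062 genes, which are not independent replicates, Pearson's r between the sets was -0.04 as deposited and -0.03 with TMM factors. About their medians the differences had the same sign in 49.2% of genes. Of the genes lower in replicates 1 to 4 at an unadjusted p under 0.05, 142 (7.35% of 1932) were among those higher in replicates 5 to 8 (20.6% of 690). Over all genes tested, 14.8% were lower and 0.689% higher in replicates 1 to 4 at that level. There were 7 genes lower in both sets (0.362% of 1932 and 11.5% of 61) and 3 higher in both (3.33% of 90 and 0.435% of 690). A single gene was higher in replicates 1 to 4 and lower in replicates 5 to 8 (1.64% of 61). With TMM factors 16 genes were lower in both sets (5.52% of 290) and 11 higher in both (3.22% of 342). Another 19 were lower in replicates 1 to 4 and higher in replicates 5 to 8 (5.56% of 342). The reverse held for 9 (3.10% of 290). Over all genes tested, 4.16% were lower and 3.43% higher in replicates 1 to 4 with these factors.

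A direct test of the difference between the effects of the 2 sets called 0 of 13062 genes (0%), with a lowest limma adjusted p of 0.125. At an unadjusted p under 0.05 there were 2388 genes (18.3%), 2331 of them with a lower effect in replicates 1 to 4, and 843 genes (6.45%; 319 higher and 524 lower) with TMM factors. voom called 0 genes, with 2235 at that level. These counts depended on single libraries. Without RTD-1 replicate 4, which had the highest share of its factor in genes in the RTD-1 arm (44.0%), limma called 267 genes in replicates 1 to 4, all lower with RTD-1, and 417 genes for the difference of the sets, 414 of them lower. With TMM factors and without the same library, a setting added after the data were seen, it called 0 in both, with 1251 and 1151 genes at an unadjusted p under 0.05. Without RTD-1 replicates 3 or 2 the count in replicates 1 to 4 was 14 or 2, and without saline replicates 6 or 3 the count for the difference of the sets was 27 or 1. The 2388 genes at an unadjusted p under 0.05 became 1530 without saline replicate 4 and 1313 without saline replicate 7.

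ENSRNOG00000002199 and ENSRNOG00000030683 had the lowest statistics for the difference of the sets among genes with a mean log2 level of at least 5. In replicates 1 to 4, ENSRNOG00000002199 stood at 94.0, 121, 101 and 115 normalized reads with RTD-1, against 125, 168, 140.2 and 199 with saline. Its values in replicates 5 to 8 were 164, 177, 195 and 140.1 with RTD-1, against 118, 129, 80.3 and 127 with saline. The arms did not overlap in either set, RTD-1 being below saline in the first and above it in the second; arms did not overlap in 5.99% of all genes in replicates 1 to 4 and in 3.37% in replicates 5 to 8. The effect was -0.53 log2 in replicates 1 to 4 and 0.58 in replicates 5 to 8, a difference of -1.12 (SE 0.25, limma adjusted p = 0.125), which was -0.71 with TMM factors (adjusted p = 0.626). The gene was higher in untreated PIA (174 ± 18.7) than in naive tissue (103 ± 12.8, SD, n = 4 each; limma adjusted p = 0.00343).

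For ENSRNOG00000030683 the values in replicates 1 to 4 were 32.5, 87.8, 67.9 and 104 normalized reads with RTD-1, against 126, 108, 99.5 and 157 with saline. Those in replicates 5 to 8 were 77.9, 99.5, 108 and 107 with RTD-1, against 83.8, 78.4, 44.3 and 66.3 with saline. The arms overlapped in each set through a single RTD-1 library, replicate 4 in the first and replicate 5 in the second. The difference of the sets was -1.39 log2 (SE 0.30, limma adjusted p = 0.125), and -0.99 with TMM factors (limma adjusted p = 0.626). Both genes were called without RTD-1 replicate 4 (adjusted p = 0.0354 for ENSRNOG00000002199 and 0.0268 for ENSRNOG00000030683) or without saline replicate 6 (adjusted p = 0.0426 for both).

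In the other direction, with the same limit on level, the statistics were smaller. ENSRNOG00000045636 had 889, 2301, 239 and 543 normalized reads in RTD-1 replicates 1 to 4 and 202 to 325 in RTD-1 replicates 5 to 8, against 216 to 512 over all 8 saline libraries. RTD-1 replicates 1, 2 and 4 were above all saline libraries and no other RTD-1 library was. The gene stood at 416 ± 59.7 in untreated PIA and 3474 ± 1803 in naive tissue (SD, n = 4 each). The effect in replicates 1 to 4 exceeded that in replicates 5 to 8 by 1.20 log2 (SE 0.57, limma adjusted p = 0.252). Without RTD-1 replicate 2 it did so by 0.64 (adjusted p = 0.516), and with TMM factors by 1.60 (adjusted p = 0.626). With TMM factors and without RTD-1 replicate 4, a setting added after the data were seen, it was 1.81 (limma adjusted p = 0.355). ENSRNOG00000020119, at 127 ± 37.0 normalized reads in RTD-1 libraries and 115 ± 35.4 in saline libraries (SD, n = 8 each), had a difference of the sets of 0.73 log2 (SE 0.33, limma adjusted p = 0.230). With TMM factors it was 1.14 (adjusted p = 0.626), and 1.26 when saline replicate 1 was also left out.

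To see whether RTD-1 libraries lay nearer to the naive state than saline libraries, the day 5 difference was read in the genes that change in arthritis. Untreated PIA and naive libraries, none of which enters the day 5 comparison, differed in 5130 of 13062 genes (39.3%). Of these, 2035 were raised at least 2-fold (15.6%) and 1184 lowered at least 2-fold (9.06%). The balance depended on the scaling. With no test, 2297 genes were at least 2-fold higher and 1528 lower as deposited, and 1570 higher and 1967 lower with TMM factors. The classes found as deposited were kept for the values given below with TMM factors. In bulk tissue fewer cells of a type and less RNA per cell cannot be told apart.

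Over all 8 replicates the genes raised in arthritis had a median RTD-1 minus saline difference of -0.05 log2, beside -0.04 for all genes tested. Of the 2035 genes, 14 (0.688%) were higher and 59 (2.90%) lower with RTD-1 at an unadjusted p under 0.05, near the shares of all genes (0.995% and 2.6%). The 1184 genes lowered in arthritis had a median of 0.00, with 18 (1.52%) higher and 31 (2.62%) lower. With TMM factors the medians were -0.01 and 0.04. Over all replicates, then, neither class lay far from the median of all genes tested.

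Within the sets the medians of the raised and the lowered genes lay on opposite sides of the all-gene median, and the sides were exchanged between the sets. In replicates 1 to 4 the raised genes had a median of -0.40 log2, with 13.8% of them higher with RTD-1, and the lowered genes a median of 0.02, with 51.7% higher, beside -0.24 for all genes. For replicates 5 to 8 the raised genes had a median of 0.29, with 84.9% higher, and the lowered genes a median of -0.01, with 47.3% higher, beside 0.17 for all genes. TMM factors gave -0.15 for raised and 0.24 for lowered genes in replicates 1 to 4, and 0.13 and -0.15 in replicates 5 to 8. The order of the 2 classes within each set was the same under both scalings. A factor per library shifts all its genes nearly alike, so this order could hardly change with the scaling and gains no support from it. At an unadjusted p under 0.05 and with TMM factors, 25 raised genes (1.23%) were higher and 189 (9.29%) lower with RTD-1 in replicates 1 to 4, beside 3.43% and 4.16% of all genes. In the other set 78 (3.83%) were higher and 14 (0.688%) lower, beside 2.62% and 2.22% of all genes. For lowered genes the counts were 74 higher (6.25%) and 11 lower (0.929%) in replicates 1 to 4, and 4 higher (0.338%) and 45 lower (3.80%) in replicates 5 to 8.

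Medians lay farther from that of all genes where the arthritis change was larger, in most steps. The 81 genes raised at least 16-fold in arthritis had a median of -0.82 log2 in replicates 1 to 4 and 0.53 in replicates 5 to 8, and -0.17 over all replicates. The 639 genes raised 4-fold to 16-fold had -0.48, 0.37 and -0.06 in the same order. The 74 genes lowered at least 16-fold had 0.50, 0.01 and 0.21. About the all-gene median, those 74 genes lay at 0.74 log2 in replicates 1 to 4 and -0.16 in replicates 5 to 8, closer to 0 in the second set than the 535 genes lowered 4-fold to 16-fold (-0.28). Across all 13062 genes the arthritis change correlated with the day 5 difference at r = -0.31 in replicates 1 to 4, 0.29 in replicates 5 to 8 and -0.06 over all. With TMM factors these were -0.29, 0.27 and -0.06, but a factor per library can hardly change such an r. Genes of a class share the same 16 libraries and are no independent support for a direction.

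**Figure D3:**
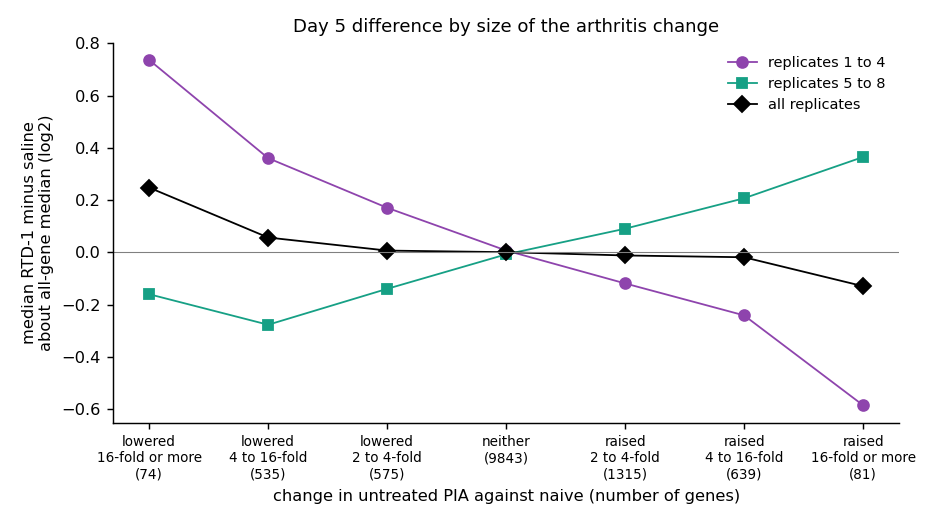
Median RTD-1 minus saline difference at day 5, in log2 units about the median of all genes tested, for genes grouped by their change in untreated PIA against naive tissue (numbers of genes in brackets). Replicates 1 to 4 run downward from 0.74 in the most lowered genes to -0.59 in the most raised, replicates 5 to 8 run broadly upward, and all replicates together stay between -0.13 and 0.25.

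**Figure D4:**
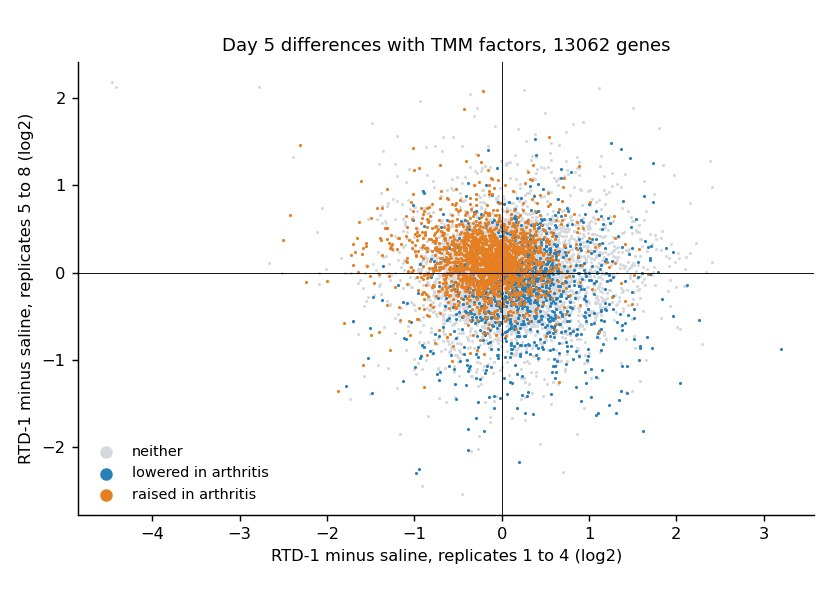
RTD-1 minus saline difference with TMM factors in replicates 5 to 8 (vertical) against replicates 1 to 4 (horizontal), both in log2 units, 1 point per gene. Genes raised in arthritis are shifted left and upward (medians -0.15 and 0.13) and genes lowered in arthritis right and downward (0.24 and -0.15), while the cloud of all genes has almost no slope (r = -0.03).

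The single libraries show where these differences sat. The mean log2 level of the raised genes minus that of the lowered genes was 0.84, 0.44, 2.15, 1.87, 1.75, 2.40, 2.23 and 1.96 in RTD-1 replicates 1 to 8. In saline replicates 1 to 8 it was 1.82, 1.69, 1.10, 2.59, 1.19, 2.38, 1.48 and 1.88. RTD-1 replicates 1 and 2 were the 2 lowest of the 16 libraries, nearest to naive tissue, and the other 6 RTD-1 libraries lay within the saline range. Untreated PIA libraries lay at 2.66 to 3.46 and naive libraries at -1.33 to -1.08, but these 8 libraries defined the genes. All 16 libraries of day 5 were between those ranges.

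The level averaged 1.70 ± 0.70 in RTD-1 libraries and 1.77 ± 0.53 in saline libraries (SD, n = 8 each), a difference of -0.06 log2, smaller than the spread within either arm. It turned positive when RTD-1 replicate 1 (0.06) or 2 (0.12), or saline replicate 4 (0.06) or 6 (0.03), was left out. For replicates 1 to 4 alone, RTD-1 libraries averaged 1.33 ± 0.81 and saline libraries 1.80 ± 0.61 (SD, n = 4 each), a difference of -0.48. RTD-1 replicates 5 to 8 averaged 2.08 ± 0.29 and saline replicates 5 to 8 averaged 1.73 ± 0.52 (SD, n = 4 each), a difference of 0.35. Both within-set differences were smaller than the larger of their 2 SDs. Leaving out single libraries moved the first between -0.75 and -0.18 (the smallest without RTD-1 replicate 2) and the second between 0.17 and 0.57 (the smallest without saline replicate 5). TMM factors gave differences of -0.05, -0.44 and 0.34 for all replicates, replicates 1 to 4 and replicates 5 to 8. A factor per library nearly cancels in this level, so little change was possible.

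**Figure D5:**
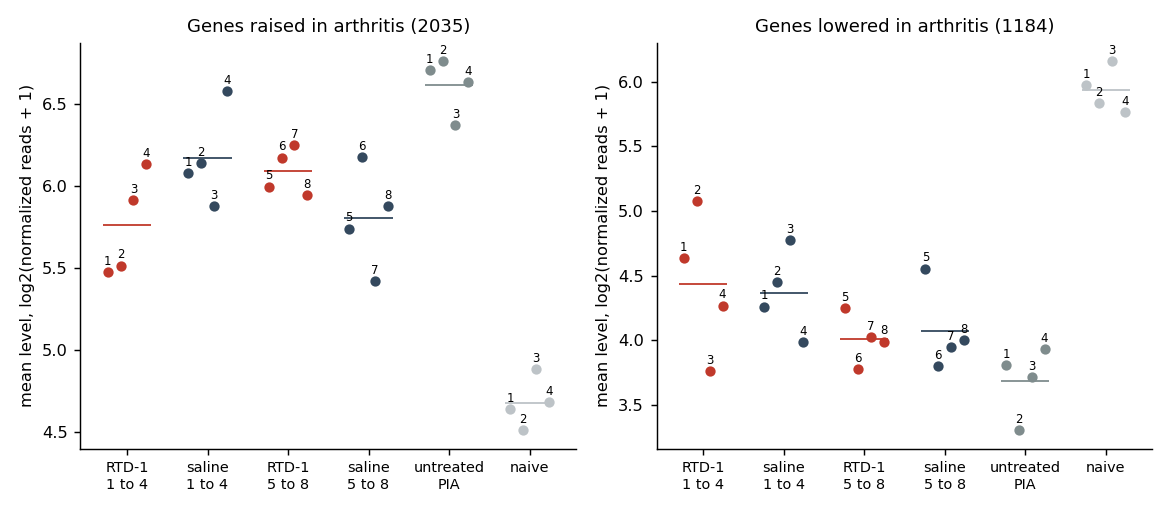
Mean log2(normalized reads + 1) of the 2035 genes raised (left) and the 1184 genes lowered (right) in arthritis, in each RTD-1 and saline library of day 5 by replicate set, and in the untreated PIA and naive libraries that defined the genes. Points carry replicate numbers and horizontal lines are means; RTD-1 replicates 1 and 2 are low on the left and high on the right.

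ENSRNOG00000002548 and ENSRNOG00000013552 had the largest rise and the largest fall in arthritis among called genes with a mean log2 level of at least 5 over all libraries. They were chosen after their values were seen. ENSRNOG00000002548 ran from 1941 to 18754 normalized reads in RTD-1 libraries (median 9970.0) and from 5738 to 14328 in saline libraries (median 7581). RTD-1 replicate 2 was the lowest and RTD-1 replicate 6 the highest of the 16 libraries, so the RTD-1 arm spanned the whole saline range. ENSRNOG00000013552 had 1533, 7510.3, 3.51, 881, 157, 17.0, 152 and 36.9 normalized reads in RTD-1 replicates 1 to 8, against 22.9 to 301 in saline libraries (median 80.8). RTD-1 replicates 1, 2 and 4 lay above all saline libraries, and RTD-1 replicates 3 and 6 below all of them. Naive tissue held 18641 to 33130.3 and untreated PIA 15.8 to 45.1.

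Saline replicate 1 differed from the rest in more than depth. Of the 13062 genes tested, 132 were at least 2-fold above all other 15 libraries of day 5 in it, and 387 at least 2-fold below. Among the 8221 genes with a mean log2 level of at least 5 the counts were 46 and 202. They were not made for any other library, so they do not show that saline replicate 1 differed more than others. The gene with most reads in it, ENSRNOG00000047746, had 182677 normalized reads there, 0 to 6862 in RTD-1 libraries and 0 to 7174 in the other 7 saline libraries. This gene was listed at 0 in RTD-1 replicates 1 and 2 and saline replicates 2 and 5, so it varied widely in both arms.

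Leaving that library out changed no count of calls. limma then called 0 of 13062 genes over all replicates, with 418 at an unadjusted p under 0.05 (136 higher and 282 lower), of which 323 were among the 470 found with it. It called 0 in replicates 1 to 4, with 1932 at that level (94 higher and 1838 lower). It also called 0 for the difference of the sets, with 2417. Across genes the differences over all replicates with and without the library correlated at r = 0.91, 763 genes moved by more than 0.2 log2 and 1315 changed sign. Without it 2 genes had all 8 RTD-1 libraries below all 7 saline libraries, and 0 had them above.

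Libraries other than saline replicate 1 also stood apart in part of the genes. Saline replicate 7 was the library with the lowest share of its factor in genes (24.5%). By Dixon's gap criterion within an arm of 8, it was far below its arm in 650 genes and far above in 5 (5.01% of genes either way). Of the 253 genes at an unadjusted p under 0.05 in replicates 5 to 8 without it, 176 were higher with RTD-1. Saline replicate 1 was far below in 307 genes and far above in 100 (3.12% of genes either way). RTD-1 replicate 3 was far below in 307 and far above in 16 (2.47%). RTD-1 replicate 1 was far below in 261 and far above in 42 (2.32%). Some library was far from its arm in 7.59% of genes in the RTD-1 arm and in 10.9% in the saline arm. For normally spread values chance gives such a gap in about 1 in 20 groups. The counts by library are on the deposited scaling, where a shift of a whole library also enters, and were not made with TMM factors. Saline replicate 7 had the lowest median log2 level of its arm, 5.26, beside an arm median of 5.77.

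The day 5 differences were also set beside those of the other durations, which have their own RTD-1 and saline libraries. Across 13062 genes the day 5 difference correlated with that of day 3 at r = -0.02 and with that of day 1 at r = 0.22. Without the 3 deeper saline libraries, 1 at each duration, r was -0.16 with day 3 and 0.02 with day 1, so the positive correlation with day 1 was not seen without them. This setting was added after the data were seen.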

How the data were processed

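Synovial total RNA was made into stranded libraries and sequenced from 1 end for 75 nt, per the labels' protocols. The submitters' processing notes name HISAT and DESeq, without versions; for the genome build and the annotation, nothing is given in the sources used here. The authors deposited log2 values, and undoing the logarithm and a factor for each library returned whole reads for 100% of the values above 0 (relative tolerance 0.001); 0 reads are held at 0.9 of a read. The row without an identifier held 0.000384% to 0.0137% of reads and was left out.

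Reads were scaled to the median factor of 5.75 megareads, and genes reaching 10 normalized reads in 4 or more libraries were tested. limma 3.58.1 in R 4.3.3 (trend and robust settings) was run on log2(normalized reads + 1) over all 58 libraries, as 10 group means, or as 14 for the replicate sets. Tests are two-sided, with Benjamini-Hochberg adjusted p under 0.05 as the threshold. Fold changes on this scale understate the change of low genes. The test had been written for normalized counts; since the file holds log2 values, the logarithm was undone first. The script was tested on simulated data. The members, gene classes and lists were chosen with earlier results of these data known. Genes named are those with the highest and lowest moderated statistic at a mean log2 level of at least 5, at most 2 per direction, for the arms and for the difference of the sets, plus the gene with most reads in saline replicate 1. The reference table used here matched 0 identifiers to a symbol, so lists of pathway and cell type genes were not analysed here, and no sequences are shown. All pairs of libraries within an arm differed by more than sampling noise (chi-square per degree of freedom at least 3.08). Same-numbered libraries of the arms did not deviate together in all pairs (correlations -0.19 to 0.39), so numbers were not taken as pairs. Alternatives were pseudocounts (0.5 or 8), filters (none, or 50 normalized reads), scaling by TMM factors or quantiles, array weights, fewer libraries in the fit, a replicate block and each library left out. limma voom, thinning to at most 1500000 reads and combinations with TMM factors were among the alternatives, and those on the arthritis level and on RTD-1 replicate 4 were added after the data were seen. Figures were drawn with matplotlib 3.10.9.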

Additional observations from a re-analysis of the deposited data

Results flagged for a closer look

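Each value here is a library whose gap to the next in its arm of 8 was large for the range of the arm by Dixon's criterion. The criterion was applied here to reads and normalized reads, not to their log2 as in the counts by library above. Chance gives such a gap in about 1 in 20 groups only where values are normally spread, which was not checked for these reads. Reads in genes were 6415288 in saline replicate 1. ENSRNOG00000047746 stood at 6862 normalized reads in RTD-1 replicate 4 and at 182677 in saline replicate 1. ENSRNOG00000012853 was lowest at 19.6 in RTD-1 replicate 6 and at 14.4 in saline replicate 8. RTD-1 replicate 2 held 2301 normalized reads of ENSRNOG00000045636 and 7510.3 of ENSRNOG00000013552, both lower in untreated PIA than in naive tissue. ENSRNOG00000020119 reached 191 in saline replicate 5.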

How the results depend on the processing

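Over all replicates the count stayed at 0 in 13 other settings and in 16 fits each without 1 library, while the number at an unadjusted p under 0.05 ran from 305 to 775 and from 376 to 724. In replicates 5 to 8 it stayed at 0 throughout. In replicates 1 to 4 limma called 15 genes with array weights and 1 with reads thinned, all lower with RTD-1, and 0 to 267 without single libraries. The difference of the sets called 0 to 417 genes without single libraries. The cause was not tested, though each such fit rests on fewer samples. With a replicate block, a fit on day 5 libraries only, the counts were 0 over all replicates, in each set and for the difference, with 354, 1641, 605 and 1908 genes at an unadjusted p under 0.05. By number, 3 of 8 RTD-1 libraries correlated best with their own saline library, and 4 of the 8 same-numbered pairs had a correlation over 0.1. Whether some numbers mark pairs was not tested. PIA against naive gave 4152 to 6178 calls, and with TMM factors 2577 higher and 2576 lower against 3637 and 1493 as deposited. Of the 4 genes named for the arms and the 4 named for the difference of the sets, none changed direction in these settings; ENSRNOG00000017508 was not tested under the filter of 50 normalized reads. Without single libraries its difference ran from -0.88 to -0.68. Of the other named genes, ENSRNOG00000047746 had without saline replicate 1 a difference of 0.99 log2, against -0.33 with it, and ENSRNOG00000002548 of -0.04, against 0.01. Intervals were wider for weakly expressed genes, and whether depth or spread between libraries made them so was not tested.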
